A study of Rattus norvegicus with 8 samples.

Results

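The genes described here were 10 members of the tetraspanin family, Cd82, Cd9, Cd81, Cd63, Cd151, Tspan3, Tspan4, Tspan6, Tspan9 and Tspan17, among the 31699 rows of the deposited expression table and the 31 tetraspanins that it lists. Each gene had exactly 1 row by its symbol, and all 10 passed the filter of a mean of at least 1 TPM over the samples. They were picked from the family with the group values of these samples known. Their differences between the groups are therefore a description with errors and no p-value, and where members are counted by a call rule the count supports nothing.

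The study asked how loss of Piezo1, a mechanosensitive cation channel, changed gene expression in annulus fibrosus cells (AFCs) under cyclic mechanical stretch (CMS). AFCs are the cells of the fibrous outer ring of the intervertebral disc, and these came from Sprague Dawley rats. The methods give 3-month-old males for the animal model of the study and state no separate age for the rats that gave the cells. RNA-seq was performed on 4 Lv-Ctrl samples and 4 Lv-Piezo1 samples. Lv-Ctrl cells received the lentiviral control vector pLVX-shRNA-Puro, and Lv-Piezo1 cells received pLVX-shRNA-Puro-Piezo1, which carries a short hairpin RNA against Piezo1. Both were given at a multiplicity of infection of 20 for 24 h. Cells of both groups were stretched at 20% elongation and 0.5 Hz for 36 h, so no unstretched and no uninfected cells are compared here. Cells of 8 rats were pooled at each isolation. The study describes 4 biological repeats that received either treatment, and counts cells of the same isolation as the same repeat. The labels number the samples of each group but do not say which of them share an isolation.

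Tetraspanins are small proteins that cross the membrane 4 times and carry a short and a long extracellular loop. They bind each other and partner proteins such as integrins, immunoglobulin-family receptors and the protease ADAM10, and so gather them into membrane patches that act in adhesion, migration, membrane fusion and protein sorting. Cd9, Cd63 and Cd81 are the usual markers of extracellular vesicles. In connective tissue cells, tetraspanins that bind integrins take part in adhesion to the matrix.

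The deposited values are TPM, which keep no sequencing depth, so counting error cannot be given and the spread of 4 samples was the only measure of precision. Piezo1 went against its label. Its RNA measured 31.1, 33.0, 26.7 and 29.5 TPM in Lv-Ctrl replicates 1 to 4 and 38.1, 37.7, 40.2 and 41.4 TPM in Lv-Piezo1 replicates 1 to 4 (log2 fold change 0.38, limma adjusted p = 8.6e-04). After median-ratio scaling the log2 fold change was 0.22. Directions below therefore compare libraries by their labels only, with Lv-Ctrl as the reference, and not by a loss of Piezo1 transcript measured in them. The study reports a separate check in which the hairpin was effective, and that check is not part of these libraries. The median log2 fold change of the 13103 tested genes was 0.14 on deposited TPM and -0.0046 after median-ratio scaling, and changes are read against that shift. Lv-Ctrl replicate 3 was the lowest of its group in 48.8% of the tested genes, and Lv-Piezo1 replicate 4 the highest of its group in 42.7%. The 12 annulus fibrosus and matrix markers summed to 7159 to 8017 TPM in Lv-Ctrl and 10933 to 11658 TPM in Lv-Piezo1, and 10 of them were tested. By the call rule (an adjusted p below 0.05 and a log2 fold change of at least 1) Thbs4 and Comp rose and Dcn fell, the last from 1456 to 519 TPM on average, and without the fold threshold 6 were higher and 3 lower. Comp averaged only 0.7375 TPM in Lv-Ctrl and 2.86 TPM in Lv-Piezo1. It passed the filter through Lv-Piezo1, so its call is no support. Tnmd was at or near 0 and Col2a1 below 1 TPM. The 10 smooth muscle and pericyte markers summed to 442 to 451 TPM in Lv-Ctrl and 4551 to 4722 TPM in Lv-Piezo1. Most of that was Tagln (219 and 2730 TPM on average) and Acta2 (51.2 and 1344 TPM). Of the 8 tested, 6 rose by the call rule (4.91% of all tested genes did). Cspg4 (29.5 and 51.1 TPM) and Pdgfrb (106 and 118 TPM) did not, and Pdgfrb had a log2 fold change of -0.01 after median-ratio scaling. Rgs5 stayed below 1 TPM and overlapped between the groups. Of 10 leukocyte markers 7 stayed below 1 TPM in every sample, Ptprc, Tyrobp and Adgre1 at or near 0, and the list summed to 21.8 to 23.6 TPM against 37.1 to 42.4 TPM, nearly all of it Cd14 and Cd68. Of 8 endothelial markers 7 stayed below 1 TPM, and that list summed to 25.2 to 34.0 TPM against 28.2 to 33.2 TPM. The nucleus pulposus list had 4 measured markers, with Tbxt listed at 0, and summed to 5.78 to 6.68 TPM against 22.1 to 26.7 TPM. Nearly all of that difference was Cd24, which averaged 3.79 TPM in Lv-Ctrl and 21.9 TPM in Lv-Piezo1. Krt8 overlapped between the groups (2.56 and 3.17 TPM on average), and Krt18 was at or near 0. The part of any of these in the differences below was not tested. In bulk RNA a smaller share of cells that express a gene and less RNA of it per cell cannot be told apart.

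Cd82, also called Kai1, is a tetraspanin known as a suppressor of metastasis that slows migration and promotes the uptake of integrins and growth factor receptors from the cell surface. Its row is ENSRNOG00000000047. It measured 509, 503, 503 and 502 TPM in Lv-Ctrl replicates 1 to 4. In Lv-Piezo1 replicates 1 to 4 it measured 310.4, 309.95, 309 and 314 TPM. The groups did not overlap, and the samples of each group lay within a few TPM of each other. The mean went from 504 ± 3.30 to 311 ± 2.08 TPM (SD, n = 4 each), a level 38.4% lower in Lv-Piezo1. The coefficient of variation over 4 samples was 0.654% in Lv-Ctrl and 0.668% in Lv-Piezo1. On the log2(TPM + 1) scale, used throughout and understating differences of low genes, the difference was -0.70 (standard error 0.02, 95% interval -0.75 to -0.64), short of the 1 log2 unit that the call rule asks for. Median-ratio scaling gave -0.86 and quantile normalization -0.67. By mean level Cd82 ranked 299 of all rows in Lv-Ctrl and 462 in Lv-Piezo1.

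**Figure D1:**
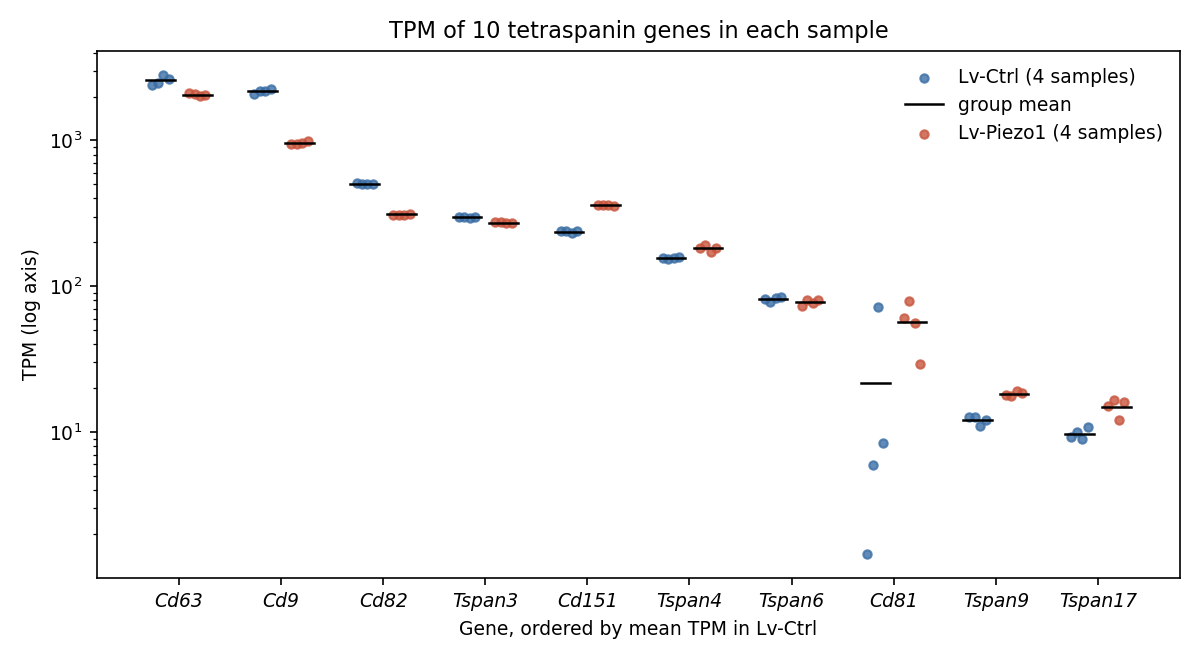
TPM of the 10 tetraspanin genes on a log axis, in the 4 Lv-Ctrl samples (blue) and the 4 Lv-Piezo1 samples (red), with the mean of each group as a black line. Cd9, Cd82 and Cd63 sat lower and Cd151, Tspan9 and Tspan17 higher in Lv-Piezo1, and the Cd81 points of Lv-Ctrl were spread from 1.46 to 71.6 TPM.

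Cd9 and Cd63 were the most abundant tetraspanins in both groups, and both were lower in Lv-Piezo1. Cd9 binds integrins and immunoglobulin-family partners at the cell surface and controls membrane fusion. It measured 2092, 2185, 2201 and 2254 TPM in Lv-Ctrl and 948, 942, 963 and 989 TPM in Lv-Piezo1. Every Lv-Piezo1 sample lay far below every Lv-Ctrl sample. The mean was 2183 ± 67.3 TPM against 960.5 ± 21.1 TPM (SD, n = 4 each), with a log2 difference of -1.18 (standard error 0.03), the largest downward difference among the 10 genes. Cd63 sits mostly in late endosomes and lysosomes and binds TIMP-1 at the surface. It measured 2413, 2485, 2826 and 2656 TPM in Lv-Ctrl and 2108, 2071, 2021 and 2046 TPM in Lv-Piezo1. The groups did not overlap here either, but the distance was small beside that of Cd9, and Lv-Ctrl replicate 3 was the highest. The log2 difference of Cd63 was -0.33 (standard error 0.05). Its size depended on the scaling, with -0.49 after median-ratio scaling and -0.22 with quantile normalization.

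Cd151 stood on the other side. This tetraspanin binds the laminin-binding integrins tightly and holds them in adhesion complexes. It measured 238, 241, 232 and 238 TPM in Lv-Ctrl and 360.3, 361, 361 and 353 TPM in Lv-Piezo1. All Lv-Piezo1 samples were higher, with a mean of 359 ± 3.80 TPM against 237 ± 3.72 TPM (SD, n = 4 each) and a log2 difference of 0.59 (standard error 0.03). Cd151 thereby stood above Cd82 and Tspan3 in Lv-Piezo1 and below both in Lv-Ctrl. Lv-Ctrl samples had Cd63, Cd9, Cd82, Tspan3 and Cd151 in descending order of TPM, and Lv-Piezo1 samples had Cd63, Cd9, Cd151, Cd82 and Tspan3. TPM is a value per transcript length, so these levels can be set side by side. Within each group the values of these 5 genes did not overlap between neighbours in the order. Further down, the samples of Cd81 overlapped with those of Tspan9 in Lv-Ctrl and with those of Tspan6 in Lv-Piezo1, so their places were not distinct.

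Tspan3, a widely expressed member, measured 299, 298, 293 and 298 TPM in Lv-Ctrl and 274, 277, 272 and 269.95 TPM in Lv-Piezo1. The groups were separate but close, with a log2 difference of -0.12 (standard error 0.02), which was -0.28 (standard error 0.03) after median-ratio scaling. Tspan4, a tetraspanin of the migrasome, a vesicle left behind on retraction fibres, measured 156, 153, 157 and 158 TPM in Lv-Ctrl and 183, 191, 173 and 183 TPM in Lv-Piezo1. All Lv-Piezo1 samples were higher. Its log2 difference of 0.22 (standard error 0.03) was 0.06 after median-ratio scaling, so most of it was of the size of the shift of all genes. Tspan6, which binds the vesicle adaptor syntenin, overlapped between the groups, with 81.7 ± 2.43 TPM in Lv-Ctrl and 77.9 ± 3.61 TPM in Lv-Piezo1 (SD, n = 4 each) and an interval of the log2 difference from -0.16 to 0.03. After median-ratio scaling the log2 difference of Tspan6 was -0.23 (standard error 0.05). Tspan9, known from platelets, measured 11.0 to 12.8 TPM in Lv-Ctrl and 17.8 to 19.2 TPM in Lv-Piezo1, and Tspan17, which escorts ADAM10 to the surface, 9.0 to 10.9 TPM and 12.0 to 16.5 TPM. Both had separate groups, with log2 differences of 0.56 (standard error 0.06) and 0.56 (standard error 0.10).

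Over the 10 genes, 5 had a higher and 5 a lower fitted level in Lv-Piezo1, the groups did not overlap in 8 (against 54.2% of all tested genes), 4 above and 4 below (39.8% and 14.5%), and Cd9 and Cd81 met the call rule (against 7.67% of all tested genes). The median log2 difference was 0.08 beside 0.14 for all tested genes. Nothing is read from these counts, because the genes were picked with the values known.

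Cd81 varied within its groups far more than the other genes. It is a partner of Cd9 in vesicles and in membrane fusion. It measured 1.46, 5.91, 71.6 and 8.46 TPM in Lv-Ctrl replicates 1 to 4 and 60.8, 79.5, 56.4 and 29.2 TPM in Lv-Piezo1 replicates 1 to 4. Lv-Ctrl replicate 3 lay inside the range of Lv-Piezo1, and the coefficient of variation in Lv-Ctrl was 152%, where the other 9 genes had at most 8.61%. The fitted log2 difference was 2.38 (standard error 0.88, 95% interval 0.40 to 4.37), and 3.32 without Lv-Ctrl replicate 3. With 1 sample left out at a time Cd81 met the call rule only without Lv-Ctrl replicate 3 or Lv-Piezo1 replicate 4. The next protein-coding gene in the RefSeq order of assembly GRCr8 is Tssc4, which was looked at after these values were seen. Tssc4 measured 247, 239, 203 and 227 TPM in Lv-Ctrl and 269, 261, 265 and 284 TPM in Lv-Piezo1. In Lv-Ctrl the samples stood in exactly the opposite order for Cd81 and Tssc4, and in Lv-Piezo1 the sample with the lowest Cd81 had the highest Tssc4. The lowest Tssc4 of Lv-Ctrl was in replicate 3, the lowest of its group in 48.8% of the tested genes. The highest Tssc4 of Lv-Piezo1 was in replicate 4, the highest of its group in 42.7% of them. The sum of both genes was 250.98 ± 16.6 TPM in Lv-Ctrl and 326 ± 11.4 TPM in Lv-Piezo1 (SD, n = 4 each). Whether reads of Cd81 were counted to Tssc4 or to another row was not tested, and no direction is given for Cd81.

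**Figure D2:**
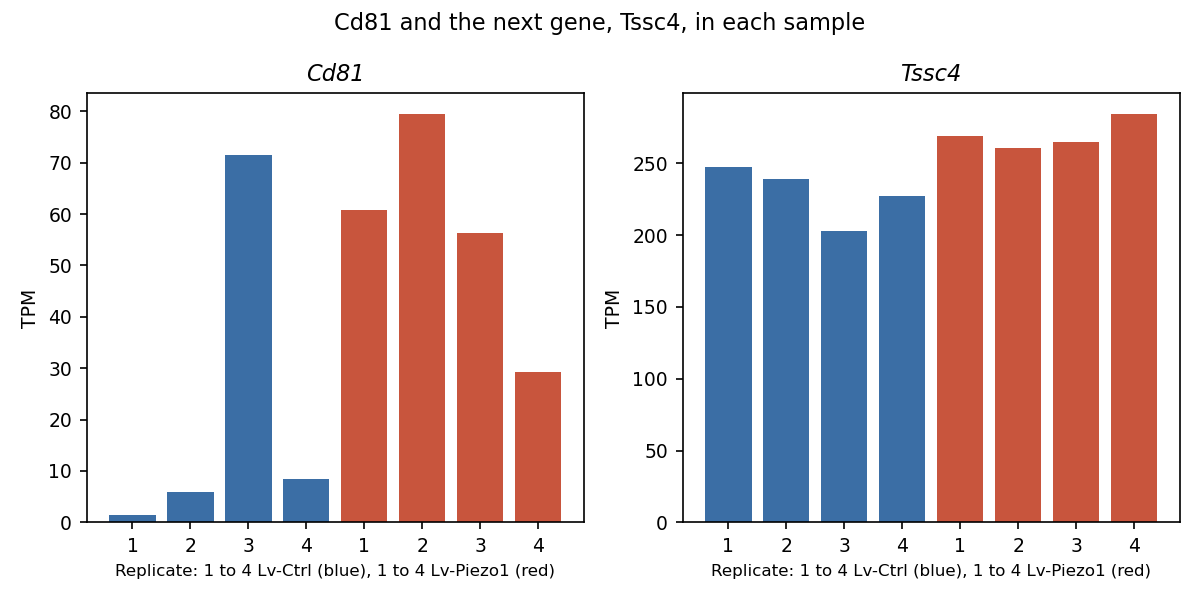
TPM of Cd81 (left) and of the next gene, Tssc4 (right), as 1 bar per sample from 0, with Lv-Ctrl in blue and Lv-Piezo1 in red. Within Lv-Ctrl, replicate 3 had the highest Cd81 (71.6 TPM) and the lowest Tssc4 (203 TPM), and replicate 1 the reverse (1.46 and 247 TPM).

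The make-up of the tetraspanin transcripts differed between the groups, most of all in the share of Cd9. Summed over the 31 listed tetraspanins, the level was 6360 ± 250.5 TPM in Lv-Ctrl and 4622 ± 42.9 TPM in Lv-Piezo1 (SD, n = 4 each). Cd9 made up 34.3% ± 0.819 of that sum in Lv-Ctrl and 20.8% ± 0.568 in Lv-Piezo1, and Cd63 40.8% ± 1.34 and 44.6% ± 0.483 (SD, n = 4 each). The share of Cd63 was thus higher in Lv-Piezo1, from 44.3% to 45.3% against 39.7% to 42.6%, although its TPM was lower. Cd82 held 7.94% ± 0.355 in Lv-Ctrl and 6.73% ± 0.0697 in Lv-Piezo1, and Cd151 3.74% ± 0.193 and 7.76% ± 0.107 (SD, n = 4 each). These shares rest on the same values as above and are a description.

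**Figure D3:**
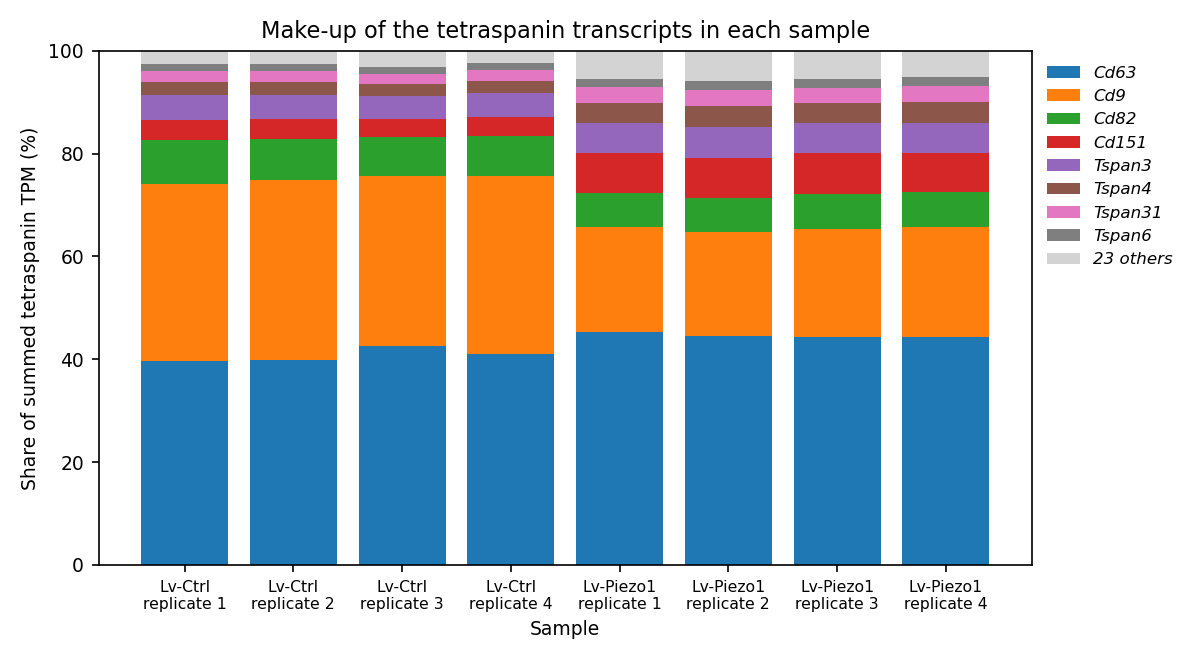
Share of the summed TPM of 31 tetraspanins (vertical axis, percent) held by each of the 8 most abundant genes and by the 23 others together, in each of the 8 samples. Cd9 took 33.2% to 35.0% in Lv-Ctrl and 20.2% to 21.4% in Lv-Piezo1, and Cd151 3.50% to 3.92% and 7.64% to 7.90%.

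The promoters of Cd9 and Cd63, both lower in Lv-Piezo1, and of Cd151 and Tspan2, both higher, are shown to set the start regions of genes with opposite differences side by side. They run from 250 bases before to 50 bases after the transcription start on the strand of the gene, from RefSeq (GRCr8), and capitals mark the GC box, GGGCGG or its complement CCGCCC, searched on both strands. Cd9 lies at chr4:159975309-159975608 on the minus strand, Cd63 at chr7:1921894-1922193, Cd151 at chr1:205994050-205994349 and Tspan2 at chr2:192866030-192866329, these 3 on the plus strand.
Cd9: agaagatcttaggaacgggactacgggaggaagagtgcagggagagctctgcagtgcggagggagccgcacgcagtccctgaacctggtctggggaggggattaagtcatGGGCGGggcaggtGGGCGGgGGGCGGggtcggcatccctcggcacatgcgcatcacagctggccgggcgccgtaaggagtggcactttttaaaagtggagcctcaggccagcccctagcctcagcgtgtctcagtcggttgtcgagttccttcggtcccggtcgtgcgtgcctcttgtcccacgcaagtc
Cd63: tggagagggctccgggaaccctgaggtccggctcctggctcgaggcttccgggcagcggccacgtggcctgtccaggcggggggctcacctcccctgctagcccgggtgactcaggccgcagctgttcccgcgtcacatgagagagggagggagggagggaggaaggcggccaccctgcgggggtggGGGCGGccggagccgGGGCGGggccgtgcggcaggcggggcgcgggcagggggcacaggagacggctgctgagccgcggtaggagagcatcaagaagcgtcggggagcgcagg
Cd151: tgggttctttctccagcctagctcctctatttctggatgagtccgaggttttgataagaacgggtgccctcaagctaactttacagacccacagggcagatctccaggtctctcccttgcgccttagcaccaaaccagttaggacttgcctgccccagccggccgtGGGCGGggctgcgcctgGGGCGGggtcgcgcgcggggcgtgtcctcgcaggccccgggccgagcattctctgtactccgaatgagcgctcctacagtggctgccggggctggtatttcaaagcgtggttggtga
Tspan2: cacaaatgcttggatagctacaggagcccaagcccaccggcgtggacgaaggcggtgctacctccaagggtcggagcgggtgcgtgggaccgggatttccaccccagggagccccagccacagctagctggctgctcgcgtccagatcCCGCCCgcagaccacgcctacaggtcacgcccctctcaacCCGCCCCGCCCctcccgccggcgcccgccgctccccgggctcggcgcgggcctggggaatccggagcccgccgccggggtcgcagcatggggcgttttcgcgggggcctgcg
Cd9 held 3 GC boxes, Cd63 2, Cd151 2 and Tspan2 3, with 2 of the 3 in Tspan2 overlapping, so genes on either side carried them. GC boxes were found in 15 of the 28 tetraspanin promoters in the table and in 33.1% of all 33469 promoters. Cd82, Tspan4 and Tspan10 had no entry. The TATA box TATAAA, read on both strands, was found in 1 of the 28 (Cd81) and in 14.2% of all promoters, and the AP-1 element TGANTCA in 2 (Cd63 and Tspan32) and in 7.33%. The CArG box, the serum response factor element of smooth muscle genes, was found in 0 of the 28 and in 1.64% of all promoters. These matches describe letters in a window and are not evidence of binding.

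The remaining tetraspanins were not part of the 10 and were tested with limma over all 13103 genes. Of the 21 in the table, 11 reached a mean of 1 TPM. Among these, 4 rose (4.91% of all tested genes did) and 0 fell (2.76%) by the call rule, while 9 (58.2% of all tested genes) had an adjusted p below 0.05 without the fold threshold, 7 higher and 2 lower (41.9% and 16.3% of all tested genes). The 0 falls stand beside those 2 lower genes, Rom1 and Tspan12. Cd53, Tspan13 and Tspan33 were below 1 TPM on average in Lv-Ctrl and passed the filter through their level in Lv-Piezo1. The counts are therefore no support for a change of the family, and the adjusted p-values of these 3 genes are a description. The median log2 fold change of the 11 was 0.71, beside 0.14 for all tested genes and 0.08 for the 10 genes picked. That median rests on the same filter and on the genes that the picking left, so nothing is read from it.

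Tspan2, a tetraspanin best known from myelinating cells and also expressed by smooth muscle, had the largest rise. It measured 2.67, 2.57, 2.45 and 2.41 TPM in Lv-Ctrl and 14, 14.72, 14.43 and 16.03 TPM in Lv-Piezo1. The groups were far apart, at a log2 fold change of 2.16 ± 0.06 (SE, limma, Benjamini-Hochberg adjusted p = 1.2e-08). Tspan7, which is abundant in neurons, measured 8.28, 9.87, 7.69 and 9.11 TPM in Lv-Ctrl and 25.1, 23.1, 24.2 and 26.3 TPM in Lv-Piezo1. All Lv-Piezo1 samples were higher (log2 fold change 1.40, standard error 0.08, limma adjusted p = 5.8e-07).

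Cd53, a tetraspanin of leukocytes, measured 0.55, 0.47, 0.59 and 0.78 TPM in Lv-Ctrl and 3.18, 2.50, 3.05 and 3.14 TPM in Lv-Piezo1. Its level stayed low and the groups did not overlap (log2 fold change 1.31, standard error 0.11, limma adjusted p = 1.1e-05). Cd53 passed the filter through its level in Lv-Piezo1, so this adjusted p is a description. Cd37, also a leukocyte tetraspanin, was listed at 0 in all Lv-Ctrl samples and averaged 0.065 TPM in Lv-Piezo1. The leukocyte marker Ptprc was at or near 0 in every sample, while Cd68 measured 0.955 TPM on average in Lv-Ctrl and 12.3 TPM in Lv-Piezo1. Tspan13 rose from 0.517 ± 0.272 to 2.58 ± 0.416 TPM (SD, n = 4 each), with a log2 fold change of 1.25 (standard error 0.16, limma adjusted p = 1.8e-04). Like Cd53, it passed the filter through Lv-Piezo1, and its adjusted p is a description too.

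Among the tetraspanins that escort ADAM10, Tspan5, Tspan14, Tspan15 and Tspan33 were tested beside Tspan17, and none met the fold threshold. Tspan15 averaged 4.14 TPM in Lv-Ctrl and 8.38 TPM in Lv-Piezo1 (log2 fold change 0.87, limma adjusted p = 9.6e-06), Tspan5 29.1 and 38.0 TPM (0.37, limma adjusted p = 6.5e-05), and Tspan33 0.795 and 1.94 TPM (0.71, limma adjusted p = 0.0010). Tspan33 passed the filter through its level in Lv-Piezo1, so its adjusted p is a description. Tspan14 averaged 48.5 and 46.7 TPM, with groups that overlapped and an interval of the log2 fold change from -0.16 to 0.06 (limma adjusted p = 0.37). After median-ratio scaling the log2 fold change of Tspan14 was -0.21 (limma adjusted p = 6.4e-04), so its lack of change holds on deposited TPM only. Adam10 itself averaged 13.2 and 11.7 TPM, also with overlap (log2 fold change -0.15, limma adjusted p = 0.32), and its log2 fold change was -0.30 after median-ratio scaling.

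Tspan12, a cofactor of Norrin signalling through Fzd4, measured 17.3 to 21.1 TPM in Lv-Ctrl and 12.1 to 13.8 TPM in Lv-Piezo1. The groups were separate at a log2 fold change of -0.50 (standard error 0.07, limma adjusted p = 2.7e-04), under the fold threshold. Rom1, known from photoreceptor discs, measured 12.2 to 14.2 TPM and 6.91 to 9.14 TPM (log2 fold change -0.71, standard error 0.09, limma adjusted p = 1.1e-04), also under it. Tspan31 averaged 134 and 143 TPM, and its log2 fold change of 0.10 (limma adjusted p = 0.053) turned to -0.06 after median-ratio scaling. The other 10 tetraspanins were not tested. Of these, 8 stayed below 1 TPM in every sample, and Tspan18 and Tspan32 averaged at most 0.988 and 1.39 TPM in a group.

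**Figure D4:**
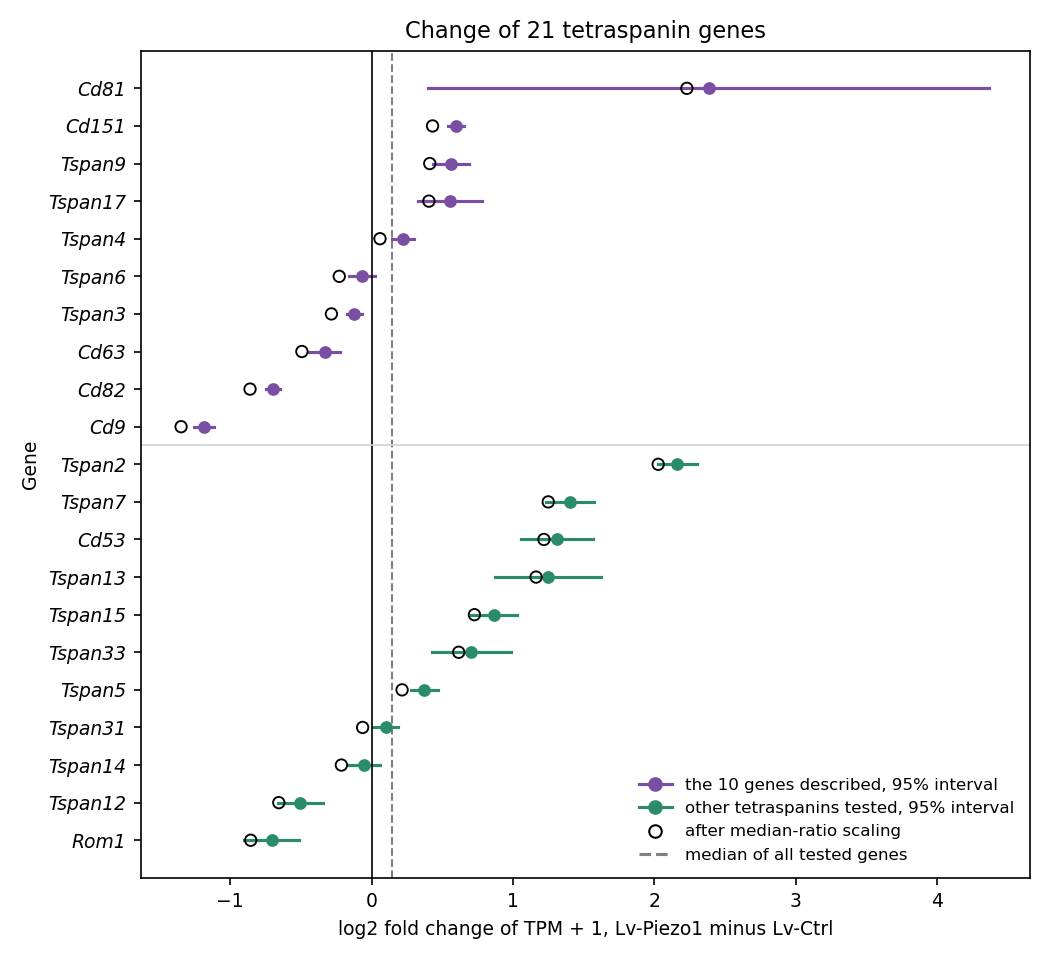
Log2 fold change of TPM + 1, Lv-Piezo1 minus Lv-Ctrl, for the 10 genes described (purple) and the 11 other tested tetraspanins (green), as points with 95% intervals from limma. Open circles are the values after median-ratio scaling and the dashed line is the median of all tested genes (0.14). Cd9 lies lowest at -1.18, Tspan2 highest among the narrow intervals at 2.16, and the interval of Cd81 runs from 0.40 to 4.37.

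The partners of tetraspanins were a list of 32 genes with a known association with the family, of which 31 were in the table and 26 were tested. The list was drawn up with earlier results of these data known, so its counts are a description and support nothing about the list. By the call rule Adgrg1 and Icam1 rose and Itga7 fell, 3 of 26 beside 7.67% of all tested genes. Without the fold threshold 17 were higher and 1 was lower at an adjusted p below 0.05 (41.9% and 16.3% of all tested genes), and the median log2 fold change was 0.34 beside 0.14 for all tested genes. After median-ratio scaling the median of the list was 0.20. Adgrg1, an adhesion receptor that associates with Cd81 and Cd9, measured 0.94 to 1.49 TPM in Lv-Ctrl and 6.66 to 7.95 TPM in Lv-Piezo1 (log2 fold change 1.90, standard error 0.11, limma adjusted p = 9.8e-07). Icam1, a leukocyte ligand gathered by Cd9 on the endothelial surface, averaged 76.5 ± 2.82 and 164 ± 2.88 TPM (SD, n = 4 each, log2 fold change 1.09, limma adjusted p = 1.9e-08), and its log2 fold change was 0.93 after median-ratio scaling, under the threshold.

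Itga7, a laminin-binding integrin chain of muscle and a partner of Cd151, measured 118, 116.5, 92.55 and 109 TPM in Lv-Ctrl and 45.4, 44.6, 46.1 and 52.5 TPM in Lv-Piezo1. The groups were well apart, with a log2 fold change of -1.19 (standard error 0.08, limma adjusted p = 3.0e-06). The other laminin-binding chains, Itga3 and Itga6, overlapped between the groups, with log2 fold changes of -0.07 and -0.14 (limma adjusted p = 0.32 and 0.23), and Itgb4 was under the filter. After median-ratio scaling the log2 fold changes of Itga3 and Itga6 were -0.23 and -0.29. Itgb1, the common beta chain, averaged 451 and 656 TPM (log2 fold change 0.54, limma adjusted p = 2.3e-04). Ptgfrn, the immunoglobulin-family partner of Cd9 and Cd81, averaged 50.9 and 85.7 TPM (0.74, limma adjusted p = 6.9e-06), Zdhhc2, an enzyme that palmitoylates Cd9 and Cd151, 3.42 and 6.80 TPM (0.82, limma adjusted p = 3.7e-05), and Met, the growth factor receptor that Cd82 restrains, 2.98 and 5.13 TPM (0.63, limma adjusted p = 0.0016). These values of Itgb1, Ptgfrn, Zdhhc2 and Met were under the fold threshold.

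A list of 29 genes of vesicle formation and release was examined because Cd63, Cd9 and Cd81 are vesicle markers, and 27 of them were tested. Like the partners, these genes were listed with earlier results of these data known, so the counts are a description only. Sdc3 rose and Hpse fell by the call rule, 2 of 27 beside 7.67% of all tested genes. Sdc3, a syndecan, a heparan sulfate carrier whose family takes part in vesicle budding, measured 1.64 to 2.23 TPM in Lv-Ctrl and 7.58 to 8.42 TPM in Lv-Piezo1 (log2 fold change 1.68, standard error 0.08, limma adjusted p = 3.2e-07). Hpse, the heparanase that trims syndecans, measured 4.61 to 5.76 TPM and 1.04 to 1.52 TPM (log2 fold change -1.47, standard error 0.11, limma adjusted p = 3.8e-06). Without the fold threshold 13 were higher and 6 lower (41.9% and 16.3% of all tested genes), and the median log2 fold change was 0.09 beside 0.14 for all tested genes. Only 12 of the 27 lay above that median of all tested genes. After median-ratio scaling the median of the list was -0.07, beside -0.0046 for all tested genes. The next largest were Sdc1 (log2 fold change 0.79), Rab27a, a GTPase of vesicle docking (0.79), and Smpd2 (0.38) among the higher genes, and Rab31 (-0.38), Sdc4 (-0.32) and Lamp2 (-0.24) among the lower ones, each with a limma adjusted p of at most 0.0099.

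**Figure D5:**
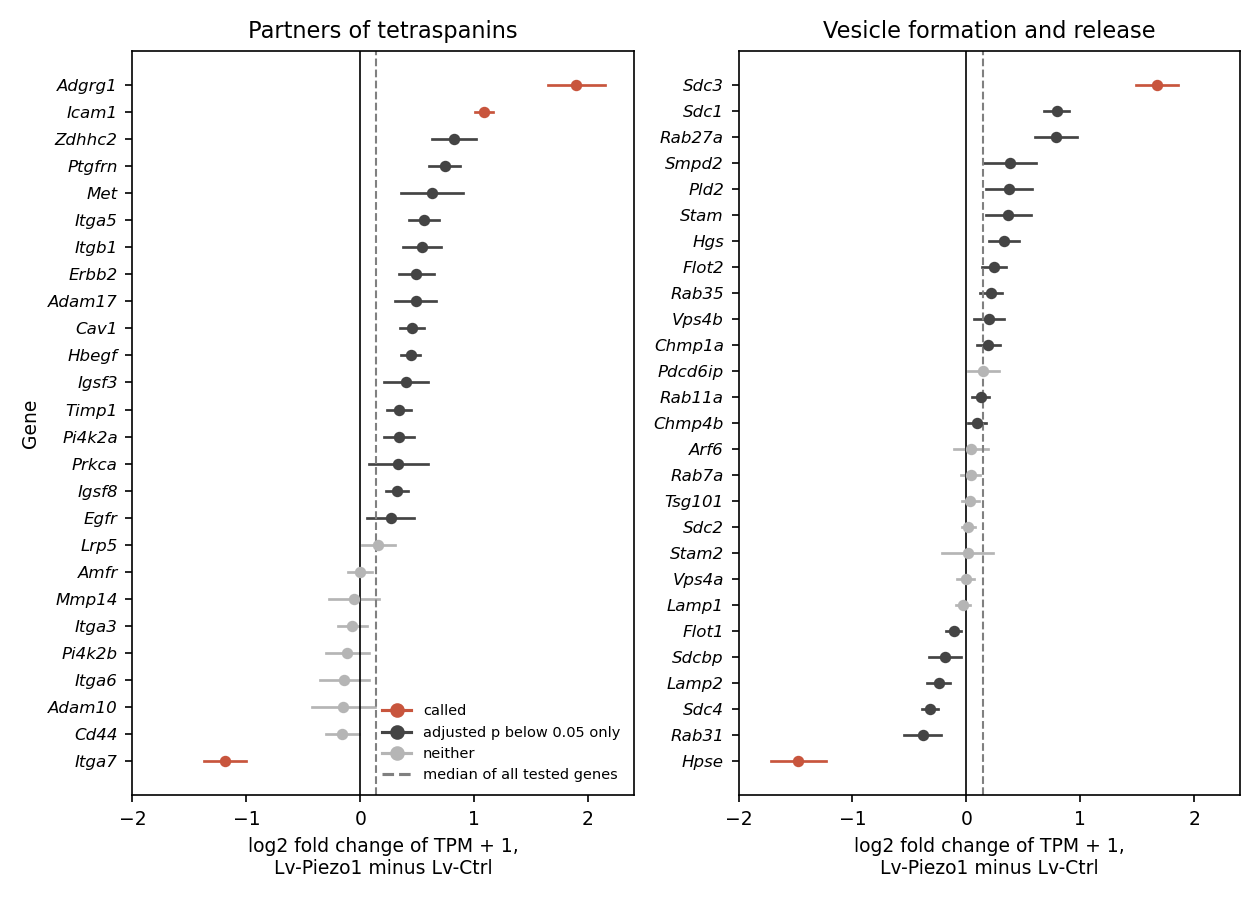
Log2 fold change of TPM + 1, Lv-Piezo1 minus Lv-Ctrl, of the 26 tested partners (left) and 27 tested vesicle genes (right) with 95% intervals from limma. Red marks genes that met the call rule, dark grey those with an adjusted p below 0.05 only, and the dashed line the median of all tested genes. Itga7 (-1.19) and Hpse (-1.47) lie alone at the low end.

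The genes whose profile over the 8 samples lay nearest to that of Cd82 were sought among 9043 genes with a symbol and a mean of at least 5 TPM, by the root mean square difference of log2(TPM + 1) centred on the mean of each gene. Pdpn, a mucin-type glycoprotein of fibroblasts and lymphatic vessels, was nearest with 0.0153 log2 units, from 693 ± 11.8 to 424 ± 4.36 TPM (SD, n = 4 each). It was followed by Nqo1, a quinone reductase, with 0.0314, Dok5, a docking protein, with 0.0333, Ctsh, a lysosomal protease, with 0.0377, and Stoml1, a stomatin-like protein, with 0.0385. All 5 had separate groups, lower in Lv-Piezo1, and Nqo1 averaged 1056 and 628 TPM. With samples in 2 groups this measure mainly finds genes with a difference of the same size.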

How the data were processed

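RNA-seq was measured in 8 AFC samples under CMS. After trimming of poor reads, the authors aligned them with HISAT2 and assembled transcripts by StringTie. The authors deposited TPM, rounded to 2 decimals, and the mean TPM of each group. The study's methods name FPKM and the DESeq package, and the submitters' processing notes name DESeq2 and the mouse build mm10. The rows carry rat Ensembl identifiers, and the rat build is not given in the sources used here. The depth is unknown, since TPM keeps none.

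From the deposited TPM, log2(TPM + 1) was fitted with limma 3.58.1 in R 4.3.3 (empirical Bayes with a trend) over 13103 genes with a mean of at least 1 TPM, and p-values were adjusted by Benjamini-Hochberg over all of them. All 8 samples entered without a block. The call rule combined an adjusted p below 0.05 with a log2 fold change of at least 1 in either direction, as in the study. The fit was also run on simulated data, to check the code only. Those data were drawn to follow the model of the fit, so they give no support to its p-values. The study describes the samples as biological repeats, but their labels do not show the isolation behind each. The p-values therefore measure the spread between these samples. The genes described and all lists were chosen with earlier results of these data known. Named were the 10 genes, every other tetraspanin tested, Piezo1, the 5 genes nearest to Cd82, and in the partner and vesicle lists each called gene and the 3 largest rises and falls with an adjusted p below 0.05. Genes outside this rule (Tssc4, Cd37, Tspan18, Tspan32, Adam10, Itga3, Itga6, Itgb1, Itgb4 and single markers) were chosen after their values were seen. The marker lists served only to describe the samples. RefSeq tables of GRCr8 gave gene order and promoters, and 28 of 31 tetraspanins matched by symbol. The alternatives were another pseudocount, other filters on low TPM, median-ratio and quantile scaling, a table without mitochondrially encoded genes, a fit with no trend, no fold threshold, a replicate block and leaving out each sample.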

Additional observations from a re-analysis of the deposited data

Results flagged for a closer look

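Of 84 groups of 4 samples, 2 for each of 42 named genes, 5 held a sample far from the other 3, where chance gives about 1 in 20. For Cd82, Lv-Ctrl replicate 1 measured 509.2 TPM and the others 502.4 to 502.9 TPM. For Cd81, Lv-Ctrl replicate 3 measured 71.57 TPM and the others 1.46 to 8.46 TPM. For Cd151, Lv-Piezo1 replicate 4 measured 352.95 TPM and the others 360.3 to 360.75 TPM. For Zdhhc2, Lv-Piezo1 replicate 3 measured 7.51 TPM and the others 6.49 to 6.64 TPM. For Sdc1, Lv-Piezo1 replicate 1 measured 89.77 TPM and the others 92.6 to 93.2 TPM. Apart from Cd81, the distances were small against the difference between the groups.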

How the results depend on the processing

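With a mean of at least 5 TPM, 628 of the tested genes were called, with 2 of the other tetraspanins, 2 partners (Adgrg1 no longer among them) and 1 vesicle gene, because genes of low TPM were no longer tested. Without the fold threshold 7626 genes, 9 other tetraspanins, 18 partners and 19 vesicle genes had an adjusted p below 0.05. Leaving out each sample gave 996 to 1038 called genes and always 4, 3 and 2 in these lists. Higher genes made up 64.1% of the called genes on deposited TPM, 52.3% with median-ratio scaling and 48.8% with quantile normalization. Median-ratio scaling turned Tspan31 to -0.0628 on the log2 scale and took Icam1 to 0.93, under the threshold, and a pseudocount of 0.1 took Tspan33 to 1.18, past it. Of 410 log2 fold changes of the named genes other than the 10 under the alternatives, these 3 changed and 407 kept their direction and call. This count says little of genes far from the fold threshold, and an adjusted p could still cross 0.05. Tspan14 went from a limma adjusted p of 0.37 to 6.4e-04 after median-ratio scaling. Cd81 ranged from 1.69 (without Lv-Ctrl replicate 1) to 3.32 (without Lv-Ctrl replicate 3), and missed the call rule after median-ratio and quantile scaling, without a trend, without a filter and without 6 of the 8 samples in turn. The fit with the replicate number as a block called 1004 genes and 4, 3 and 2 in the lists. The correlation of the deviations of same-numbered samples was -0.06 to -0.01 and no sample correlated best with its own number, so the numbers were not taken to pair the samples. The depth behind TPM is unknown, so low values such as those of Cd53 carry an error that cannot be given.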

Other observations

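By the order of protein-coding genes in the RefSeq table of GRCr8, 3 of the 10 genes have a tetraspanin as the neighbour before them, and the neighbours were far lower. Tspan18, beside Cd82, averaged 0.570 TPM in Lv-Ctrl and 0.988 TPM in Lv-Piezo1, Tspan32, beside Cd81, 0.343 and 1.39 TPM, and Tspan11, beside Tspan9, was listed at 0 in all Lv-Ctrl samples and averaged 0.237 TPM in Lv-Piezo1. Cd151 and Tspan4 lie with 1 gene between them, Polr2l, and both were higher in Lv-Piezo1 on deposited TPM.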
